A study of Ovis aries with 32 samples.

Results

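HOX, TBX and other positional identity genes were followed in cultured perirenal preadipocytes of fetal sheep (Ovis aries) before and after their differentiation. They were taken by name: every HOX, TBX, PBX, MEIS and PITX gene named in the deposited table, with SHOX2, EN1, WT1 and TCF21. This gave 62 of the 21271 genes listed, on 82 transcripts, whose values were summed for each gene. A gene was counted as detected at a value of at least 10 normalized reads in at least 4 of the 32 libraries, and 42 of the 62 genes were detected.

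The cells came from the fat around the kidney of near-term singleton fetuses of crossbred Columbia-Rambouillet ewes. Fetal growth was restricted by placental insufficiency, which was brought on by keeping the pregnant ewes at elevated ambient temperature, and the control ewes were pair-fed at a neutral temperature. RNA-seq libraries were made from preadipocytes of male controls (MC), female controls (FC), growth-restricted males (MFGR) and growth-restricted females (FFGR), and from the differentiated cells of each (MCD, FCD, MFGRD and FFGRD), with 4 libraries in each of the 8 groups. No group carried a genetic change. The labels do not say which libraries came from 1 fetus, so the p-values measure the spread between these libraries, which may in part be technical.

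HOX genes encode homeodomain transcription factors that lie in 4 clusters, and their order along a cluster follows the head-to-tail order in which they are used in the embryo. Paralog groups of low number are used towards the head and those of high number towards the tail and the tips of the limbs. PBX and MEIS proteins are homeodomain cofactors that bind DNA together with HOX proteins, and TBX proteins are T-box transcription factors that pattern the limbs, the trunk and the organs. Stromal cells of adult tissues keep a HOX pattern of their site of origin, and SHOX2, EN1, TBX15, WT1 and TCF21 are known for levels that differ between fat depots.

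Depth and library quality set the precision of all that follows. The values of a library summed to between 9.52M and 21.2M (M, mega), for approximately 7.44M to 21.2M reads, and a value of 10 stood for 5.59 to 14.3 reads. In 9 libraries the values fell with the genomic span of the genes, with a slope on log10 span of -0.85 to -0.32 against -0.06 to 0.34 in the other 23. These were MCD replicates 2 and 4, FCD replicate 2, MFGRD replicate 1, FFGRD replicate 3, FC replicate 2, MFGR replicate 1 and FFGR replicates 2 and 3. Averaged over the groups, all 8 adipocyte markers were higher in differentiated cells. FABP4 rose by 9.55 ± 0.69 (SE) and ADIPOQ by 6.82 ± 0.73 on the log2 scale. Differentiated libraries varied widely, however. The summed adipocyte markers stood at 415 in the lowest FCD library and at 185369 in the highest MCD library. The highest FFGR preadipocyte library stood at 2042. ADIPOQ was as low as 8.59 in a differentiated library, against a preadipocyte median of 11.7. Of the 8 preadipocyte and stromal markers 7 were detected. PDGFRA stood at 935 or more and DCN at 10054 or more in every library, and DLK1 at or below 2.34. Markers of other cells were low or uneven. All 4 Schwann cell markers were undetected. Of the 5 skeletal muscle markers MYOD1, MYF5 and MYOG stayed at or below 4.29 and ACTA1 at or below 10.1, while DES reached 2306. Of the 6 endothelial markers 4 were tested; CDH5 stayed at or below 2.31, while PECAM1 reached 272, TEK 77.6, EMCN 57.6, KDR 56.3 and VWF 40.4.

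The detected HOX code reached as far as paralog group 11. Of 38 HOX genes, 28 were detected, and 16 of them stood at 10 or more in every library. The HOXA cluster on chromosome 4 (build Oar_rambouillet_v1.0) had 8 of 10 listed genes detected, and the HOXB cluster on chromosome 11 (25368471 to 25535076) had 7 of 10. The HOXC cluster on chromosome 3 (142000113 to 142115277) had 7 of 9 detected, and the HOXD cluster on chromosome 2 (144548051 to 144643338) had 6 of 9.

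By paralog group, every listed gene of groups 2, 3 and 4 and of groups 6 to 10 was detected. In group 5 HOXA5 and HOXC5 were detected and HOXB5 was not, and in group 11 HOXC11 and HOXD11 were detected and HOXA11 was not. None of the 2 listed genes of group 12 and none of the 4 of group 13 were detected. HOXD13 reached 14.6 in a single library, whereas HOXA13 stayed at or below 3.88, HOXB13 at or below 5.36, HOXC13 at or below 7.29 and HOXC12 was listed at 0 throughout. Values were not divided by transcript length, so levels were compared within a gene and not between genes.

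**Figure D1:**
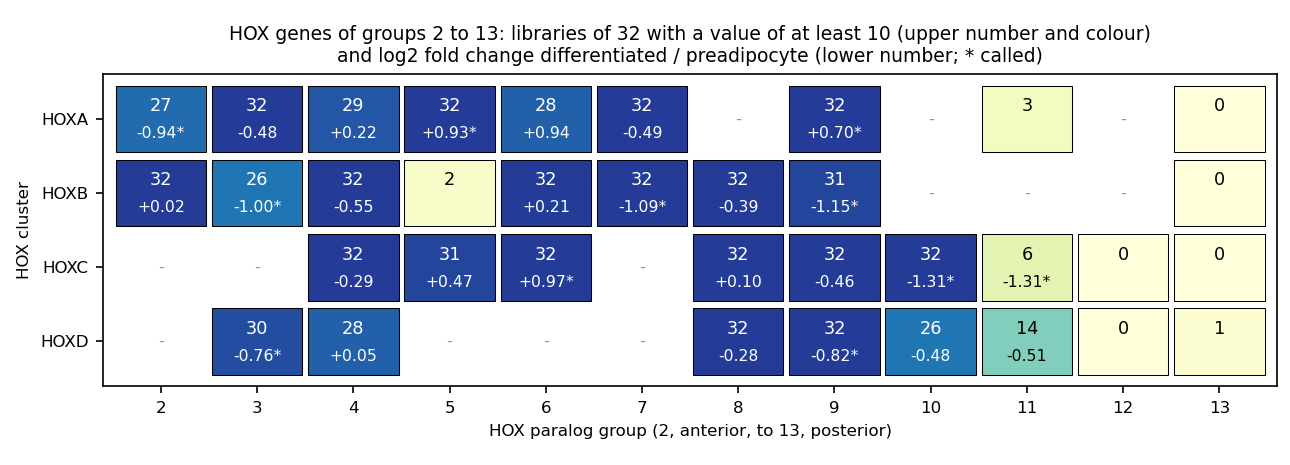
Grid of the HOX genes of paralog groups 2 to 13 by cluster (rows) and paralog group (columns); the upper number and the colour give the libraries of 32 with a value of at least 10, the lower number the log2 fold change of differentiated against preadipocyte libraries averaged over the 4 fetal groups, with an asterisk where the change was called. Detected genes run from group 2 to group 11, the 6 listed genes of groups 12 and 13 were undetected, and the 3 genes called higher (HOXA5, HOXA9, HOXC6) lie in the HOXA and HOXC clusters; a dash marks a name with no row in the table.

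Outside the HOX clusters the cofactors were detected throughout and most T-box genes were not. All 5 cofactor genes listed, PBX3, MEIS1, MEIS2 and MEIS3 among them, stood at 10 or more in every library. Of 12 T-box genes, TBX2, TBX3, TBX15 and TBX18 were detected. TBX4 and TBX5, which specify the hind and the fore limb, stayed at or below 3.57 and 1.79. TBX6, TBX10, TBX19, TBX20, TBX21 and TBX22 reached at most 5.65, 1.07, 10.9, 8.72, 1.71 and 1.81. PITX1, a hind limb factor, reached 17.8 and was not detected, while PITX3 passed the filter. SHOX2, EN1, WT1 and TCF21 were all detected.

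The members nearest the detection rule were known from few reads. PITX3 stood at 10 or more in 5 libraries, HOXC11 in 6 and TBX15 in 8, whereas HOXA11 did so in 3 libraries and HOXB5 and PITX1 in 2. HOXC11 passed only through its preadipocyte libraries, with 6 of 16 at 10 or more against 0 of 16 differentiated ones, and TBX15 passed through 7 preadipocyte libraries and 1 differentiated one. With 4 libraries of 1 stage at 10 or more, 40 members were detected in preadipocytes and 38 in differentiated cells. Detection at a value of 20 in 4 libraries would have kept 39 members, with HOXC11 and PITX3 among those lost.

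The stage comparison asked whether this code shifted between preadipocyte and differentiated libraries. The 4 fetal groups were averaged in 1 limma fit on log2(value + 1), and a gene was called at a Benjamini-Hochberg adjusted p-value below 0.05 and a fold change above 1.5. Of 42 members tested, 14 were called (33.3%), 3 higher and 11 lower in differentiated cells, against 27.2% of all 12737 genes tested. For higher calls the share over all genes was 12.4% and for lower calls 14.8%. HOXC11 and TBX15 were tested only because their preadipocyte libraries passed the filter, so a fall in them was built into their selection. Among the 38 members at 10 or more in at least 4 libraries of each stage, 11 were called, 3 higher and 8 lower, against 23.9% of 11635 such genes, and EN1 was lost there (limma adjusted p = 0.0518); this restriction was added after the data were seen. The median log2 fold change was -0.32 over the members and 0.04 over all genes. Of the 28 HOX genes 3 were called higher and 8 lower, and of the 14 other members none was called higher and 3 were called lower. Fewer cells of a type and less RNA per cell cannot be told apart in these bulk libraries.

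**Figure D2:**
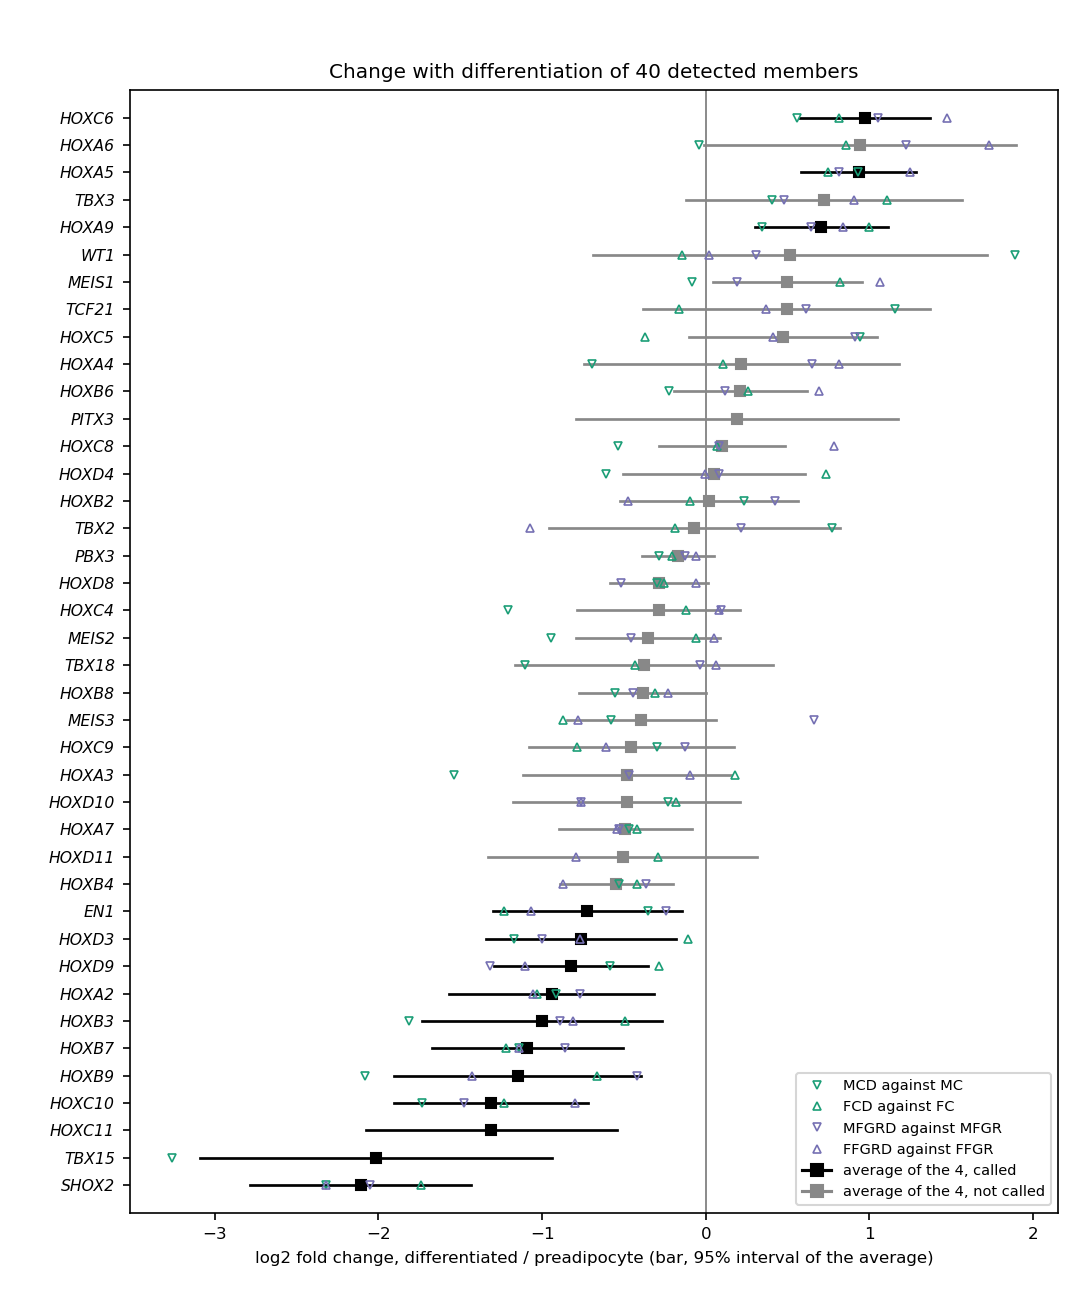
Log2 fold change of differentiated against preadipocyte libraries for 40 detected members, ordered by size; squares are the average of the 4 fetal groups with its 95% interval (black where called), triangles the estimate in each fetal group, shown where the gene passed the filter of that group's own fit. SHOX2 and TBX15 stand lowest at -2.11 and -2.01, TBX15 having passed the filter through its preadipocyte libraries, and HOXC6, HOXA5 and HOXA9 are the 3 called above 0.

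SHOX2, a homeobox gene of the proximal limb and the sinus node (chromosome 1, 250125221 to 250133612), fell with differentiation. Its values were 41.5, 24.9, 43.4 and 67.8 in MC and 7.72, 1.45, 7.76 and 27.8 in MCD. In females they were 43.7, 53.9, 27.7 and 82.3 in FC and 9.17, 6.67, 10.7 and 50.5 in FCD. All 16 differentiated libraries lay below the preadipocyte library of the same group and number, and 13 of 16 lay below every preadipocyte library. The labels do not say that equal numbers mark 1 fetus.

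In growth-restricted fetuses SHOX2 stood at 86.7, 66.3, 33.99 and 49.8 in MFGR and at 18.2, 11.7, 10.1 and 12.1 in MFGRD. It stood at 83.2, 56.4, 19.9 and 45.5 in FFGR and at 20.9, 3.15, 3.55 and 17.4 in FFGRD. The averaged log2 fold change was -2.11 ± 0.33 (SE, n = 16 and 16; limma adjusted p = 1.3e-05), and the group estimates lay between -2.32 and -1.74. The groups overlapped in MC, FC and FFGR and were apart in MFGR, where the highest differentiated library was below the lowest preadipocyte library.

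TBX15, a T-box gene of the trunk mesenchyme and the skeleton (chromosome 1, 101403921 to 101526094), was at low levels. MC stood at 51.4, 16.2, 28.6 and 27.2 and MCD at 11.2, 2.93, 0.847 and 0, so the male control groups did not overlap. In the other preadipocyte groups most libraries were low: FC stood at 64.6, 0, 8.94 and 10.1, MFGR at 0, 4.33, 8.64 and 9.49, and FFGR at 45.2, 2.79, 0.943 and 0.7605. The 12 differentiated libraries of those groups stayed between 0 and 5.40. The averaged log2 fold change was -2.01 ± 0.52 (SE), given as a description since the gene passed the filter only through preadipocytes. Many values lay at or under a few reads, so its size depends on the value of 1 added before the log.

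EN1, the engrailed homeobox gene of the mid-hindbrain and the ventral limb (chromosome 2, 197560566 to 197565182), was also called lower. Preadipocyte libraries ranged from 153 to 620 with a median of 363, and differentiated libraries from 42.7 to 495 with a median of 217. The log2 fold change was -0.72 ± 0.28 (SE; limma adjusted p = 0.0479), with estimates of -1.23 in FC and -1.07 in FFGR and of -0.35 in MC and -0.24 in MFGR. The stages overlapped in every group, and the call was lost in 23 of the 32 fits that left out 1 library, with adjusted p-values up to 0.0892.

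The 3 members that rose were HOX genes of paralog groups 5, 6 and 9. HOXC6 (chromosome 3, 142024459 to 142026301) stood at 871, 630, 860 and 753 in MC and at 1487, 472, 1443 and 1631 in MCD. It stood at 378, 675, 909 and 801 in FC and at 1138, 607, 2256 and 1135 in FCD. Of the 16 differentiated libraries 14 lay above the median of their own preadipocyte group, and the lowest, MCD replicate 2, was below all 4 MC libraries.

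Growth-restricted libraries of HOXC6 stood at 927, 1219, 532 and 1366 in MFGR and at 2565, 2067, 1294 and 2213 in MFGRD. They stood at 542, 622, 807 and 771 in FFGR and at 2645, 2210, 1452 and 1467 in FFGRD, where the groups did not overlap. The averaged log2 fold change was 0.97 ± 0.19 (SE; limma adjusted p = 0.000288).

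HOXA5, known for its part in lung and axial patterning and for expression in adult fat (chromosome 4, 75780845 to 75783043), rose in the averaged contrast. MC stood at 203, 163, 211 and 152 and MCD at 260, 409, 398 and 337. FC stood at 130, 111, 243 and 170 and FCD at 197, 283, 514 and 166. All 16 differentiated libraries lay above the median of their preadipocyte group, and the groups were apart in MC and FFGR.

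MFGR libraries of HOXA5 stood at 165, 245, 127 and 203 and MFGRD at 313, 310, 201 and 514. FFGR stood at 210, 152, 136 and 320 and FFGRD at 657, 472, 378 and 382. The averaged log2 fold change was 0.93 ± 0.17 (SE; limma adjusted p = 0.000103), with group estimates between 0.75 in FC and 1.25 in FFGR.

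HOXA9 (chromosome 4, 75759155 to 75761059) ranged from 46.3 to 191 in preadipocytes and from 91.2 to 354 in differentiated cells, with medians of 121 and 176. The log2 fold change was 0.70 ± 0.20 (SE; limma adjusted p = 0.00673), and 15 of 16 differentiated libraries lay above the preadipocyte library of the same group and number. Here too equal numbers are not stated to mark 1 fetus. The stages overlapped in every group.

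HOXC10, a posterior gene of the cluster that holds HOXC6, fell. HOXC10 (chromosome 3, 142064962 to 142069117) stood at 223, 181, 349 and 238 in MC and at 86.1, 23.3, 144 and 90.2 in MCD, which did not overlap. It stood at 69.7, 310, 182 and 290 in FC and at 17.6, 98.2, 201 and 103 in FCD. All 16 differentiated libraries were below the median of their preadipocyte group.

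In growth-restricted fetuses HOXC10 stood at 407, 492, 191 and 273 in MFGR and at 209, 112, 71.6 and 101 in MFGRD. It stood at 182, 189, 339 and 342 in FFGR and at 188, 102, 135 and 166 in FFGRD. The averaged log2 fold change was -1.31 ± 0.29 (SE; limma adjusted p = 0.000792). Its neighbour HOXC11 (142079022 to 142081221) ranged from 2.57 to 19.8 in preadipocytes and from 0 to 8.71 in differentiated cells, a description at a depth of a few reads, since it passed the filter only through preadipocytes. HOXC9 was not called, and HOXC12 and HOXC13 were undetected.

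In the HOXB cluster 3 genes fell. HOXB7 ranged from 116 to 693 in preadipocytes and from 40.4 to 279 in differentiated cells, with medians of 239 and 137, and 15 of 16 differentiated libraries lay below the median of their preadipocyte group (log2 fold change -1.09 ± 0.29 SE; limma adjusted p = 0.0038). HOXB9 ranged from 40.5 to 181 and from 2.30 to 183, with medians of 75.6 and 37.7 (-1.15 ± 0.37 SE; limma adjusted p = 0.0167). The highest HOXB9 value of all was a differentiated library, FCD replicate 4. HOXB3 ranged from 8.95 to 47.6 and from 1.18 to 35.8, with medians of 30.4 and 19.5 (-1.001 ± 0.36 SE; limma adjusted p = 0.031), and its call was lost in 4 of the 32 fits that left out 1 library, with adjusted p-values up to 0.0532.

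In the HOXA and HOXD clusters HOXA2, HOXD3 and HOXD9 fell. HOXA2 ranged from 6.40 to 60.2 in preadipocytes and from 3.54 to 33.8 in differentiated cells (log2 fold change -0.94 ± 0.31 SE; limma adjusted p = 0.018), and all 16 differentiated libraries lay below the median of their preadipocyte group. HOXD9 ranged from 37.9 to 135 and from 10.9 to 115 (-0.82 ± 0.23 SE; limma adjusted p = 0.00624), with estimates of -1.32 in MFGR and -1.11 in FFGR against -0.58 in MC and -0.28 in FC. HOXD3 ranged from 12.7 to 84.7 and from 5.87 to 44.0 (-0.76 ± 0.28 SE; limma adjusted p = 0.0376), and its call was lost in 13 of the 32 fits that left out 1 library. HOXD3 and HOXD4 overlap in the annotation (144583301 to 144583641), so reads of the overlap could be split between them.

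**Figure D3:**
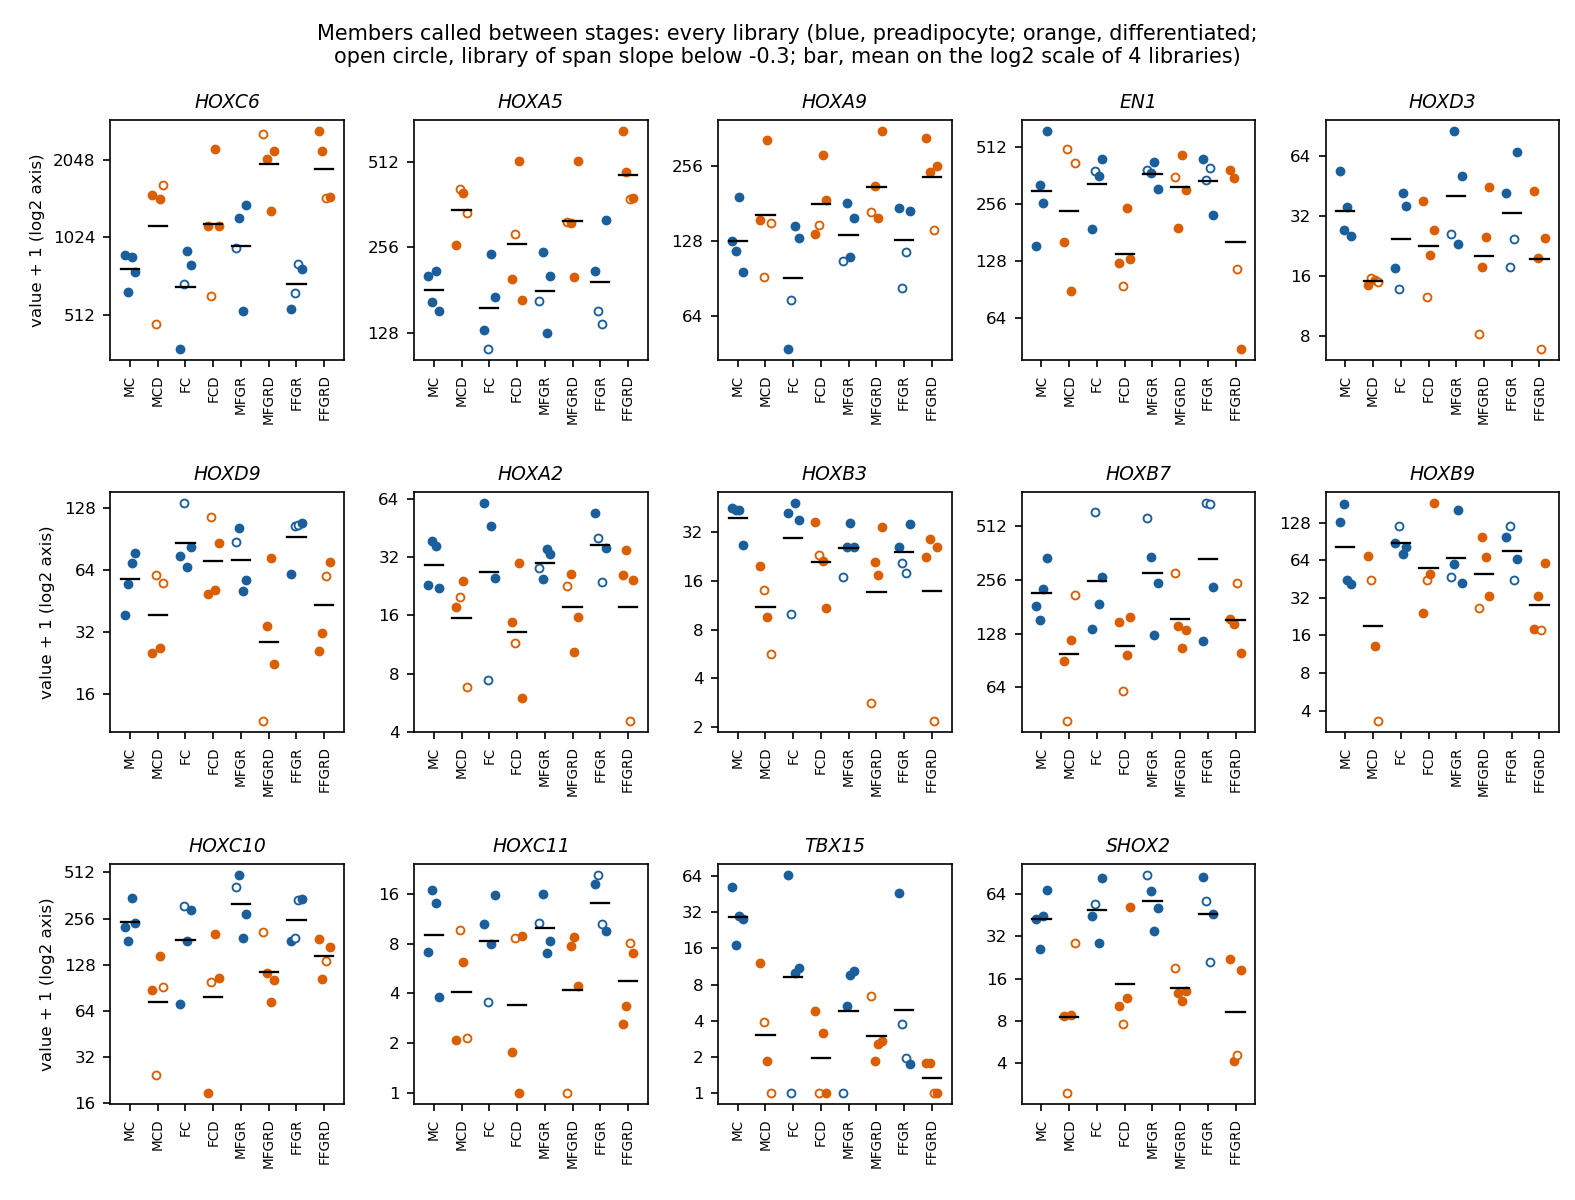
Values + 1 on a log2 axis of the 14 members called between the stages, for each of the 8 groups with its 4 libraries in the order of their numbers (blue, preadipocyte; orange, differentiated; open circles, the 9 libraries of low span slope; bars, mean on the log2 scale). SHOX2 shows 13 of 16 differentiated libraries below every preadipocyte library, while the stages overlap over the 32 libraries for all 14 genes.

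Along the HOX clusters the calls ran in both directions, against 12.4% of all genes called higher and 14.8% lower. Of 11 genes tested in groups 2 to 5, 1 was called higher and 3 lower, and of 8 in groups 6 to 8, 1 was called higher and 1 lower. Of 8 tested in groups 9 to 11, 1 was called higher and 4 lower, HOXC11 among the 4, and 7 had estimates below 0, with a median log2 fold change of -0.67 against -0.29 in groups 2 to 5 and -0.09 in groups 6 to 8. The difference between these sections was not tested.

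Several members near the thresholds were not called. HOXB4 had a log2 fold change of -0.55 ± 0.17 (SE; limma adjusted p = 0.0131), which is under 1.5-fold, and 15 of 16 differentiated libraries lay below the median of their group. HOXA7 had -0.49 ± 0.20 (SE; limma adjusted p = 0.0566) and MEIS1 0.50 ± 0.22 (SE; limma adjusted p = 0.0881). None of the 5 HOX cofactors was called, and their estimates ran from -0.39 for MEIS3 to 0.50 for MEIS1, with PBX3 varying least among libraries (148 to 356). Other detected members that were not called had these stage medians, preadipocyte first: HOXA3 92.1 and 67.1, HOXA4 44.1 and 44.1, HOXA6 37.5 and 52.8, HOXB2 47.8 and 45.4, HOXB6 113 and 128, HOXB8 72.8 and 55.2, HOXC4 164 and 162, HOXC5 26.4 and 38.7, HOXC8 556 and 593, HOXC9 411 and 366, HOXD4 21.2 and 17.7, HOXD8 168 and 129, HOXD10 29.9 and 20.7, and HOXD11 10.9 and 4.72. Outside the clusters they were MEIS2 493 and 380, MEIS3 128 and 112, TBX2 25.4 and 27.0, TBX3 110 and 169, TBX18 373 and 240, WT1 22.8 and 30.3, TCF21 88.3 and 136, and PITX3 1.22 and 2.33.

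Within single fetal groups few members passed. In MC, 1 of 38 members tested was called, TBX15 (log2 fold change -3.26 ± 0.81 SE; limma adjusted p = 0.0397), against 7.53% of all genes. In MFGR, 1 of 37 was called, SHOX2 (-2.05 ± 0.41 SE; limma adjusted p = 0.0332), against 3.38%. None of 38 members was called in FC, against 0.43% of all genes, and none of 38 in FFGR, against 2.67%. TBX15 passed the filter in MC through its preadipocyte libraries, so a fall was built into its selection and its estimate is given as a description. It did not pass in FC, MFGR or FFGR. Leaving out 1 library moved the count of all genes called from 874 to between 311 and 1746 in MC, from 50 to between 0 and 95 in FC, from 393 to between 77 and 317 in MFGR and from 310 to between 26 and 259 in FFGR.

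With the replicate number as a block, 10 members were called in MC against 16% of all genes. These were SHOX2, HOXA3, HOXA5, HOXB3, HOXB7, HOXB9, HOXC10, TBX18 and TCF21, and TBX15, for which a fall was built into its selection. In MFGR the block gave 5 members, SHOX2, HOXA5, HOXB7, HOXC6 and HOXC10, against 17.9% of all genes, and it gave none in FC. The TBX15 call in MC was lost on leaving out any 1 of its libraries other than MCD replicate 1 (limma adjusted p = 0.0729 to 0.131), and the SHOX2 call in MFGR on leaving out MFGR replicate 1, 2 or 4 or MFGRD replicate 2, 3 or 4 (limma adjusted p = 0.0638 to 0.12).

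Other regulators and patterning genes were read beside the members. Among 23 Polycomb and Trithorax genes, which hold HOX clusters silent or active, the Polycomb subunits CBX2 (log2 fold change 1.86 ± 0.29 SE) and EZH2 (0.99 ± 0.20 SE) rose and CBX7 (-0.66 ± 0.24 SE) fell, and 20 did not pass, a share of 13% against 27.2% of all genes. Of the HOX cofactors outside the name rule, PKNOX2 fell (-1.16 ± 0.34 SE) and PKNOX1 (0.49 ± 0.14 SE) was under 1.5-fold, while the HOX activators CDX1, CDX2 and CDX4 stayed at or below 2.89.

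Of 45 other mesodermal and limb patterning factors, 25 were tested, and 7 rose and 7 fell with differentiation, a share of 56% against 27.2% of all genes. Among the largest of these by moderated statistic were rises of IRX3 (3.02 ± 0.39 SE), SIX2 (1.77 ± 0.41 SE) and NR2F1 (0.86 ± 0.21 SE), and falls of OSR1 (-1.84 ± 0.25 SE), PAX8 (-3.01 ± 0.41 SE), OSR2 (-1.90 ± 0.42 SE) and PRRX2 (-1.55 ± 0.45 SE). OSR1, PAX8 and EMX2 act in the early kidney and gonad ridge, and IRX3 is a homeobox gene known in fat.

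Markers of other cells that moved with stage are given for the same contrast. In the adrenal cortex list 4 of 5 genes tested rose (CYP11A1, CYP17A1, HSD3B1 and STAR), with sums of 3.22 to 89.8 in preadipocyte libraries and 19.8 to 2052 in differentiated ones, while its receptor MC2R stayed at or below 0.974. In preadipocytes CYP11A1 stayed at or below 0.851, and CYP17A1 and HSD3B1 were at 0. CYP11A1, CYP17A1 and HSD3B1 were tested only through their differentiated libraries, so a rise was built into their selection. In the kidney epithelium list PAX8 and EMX2 fell, and UMOD was at 0 in every library and CDH16 at or below 2.97. Desmin (DES) fell by 3.43 on the log2 scale, KDR by 1.43 and CD68 by 0.81, and CD14 rose by 1.86. Of the stromal markers DCN, LUM and PDGFRB fell and THY1 rose. Of the mesothelial markers 3 of 8 were tested and none was called. The part of these in the members' stage changes was not tested.

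Growth restriction was compared with control growth within each stage, averaged over sex, to ask whether restricted fetuses carried another code. No member and none of the 12737 genes (0%) was called in preadipocytes or in differentiated cells. The same held for the difference of the stage response between growth-restricted and control cells. The 4 comparisons within a sex and stage, with 11512 to 11681 genes tested in each, also called no member and no gene (0%). At an unadjusted p below 0.05, limma gave 1 of 42 members and 344 genes in preadipocytes, 3 members and 136 genes in differentiated cells, and 0 members and 132 genes for the difference in response.

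The intervals were wide. The median half-width of the 95% interval of a member was 0.82 on the log2 scale in each stage, and the interval lay within 1.5-fold in both directions for 3 members in preadipocytes and 2 in differentiated cells. Estimates ran from -1.75 to 0.98 in preadipocytes, with 25 of 42 above 0, and from -1.07 to 0.90 in differentiated cells, with 34 of 42 above 0. The medians over the members were 0.12 and 0.22. Members of 1 contrast share the same libraries, so these counts are not independent and are given as a description.

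**Figure D4:**
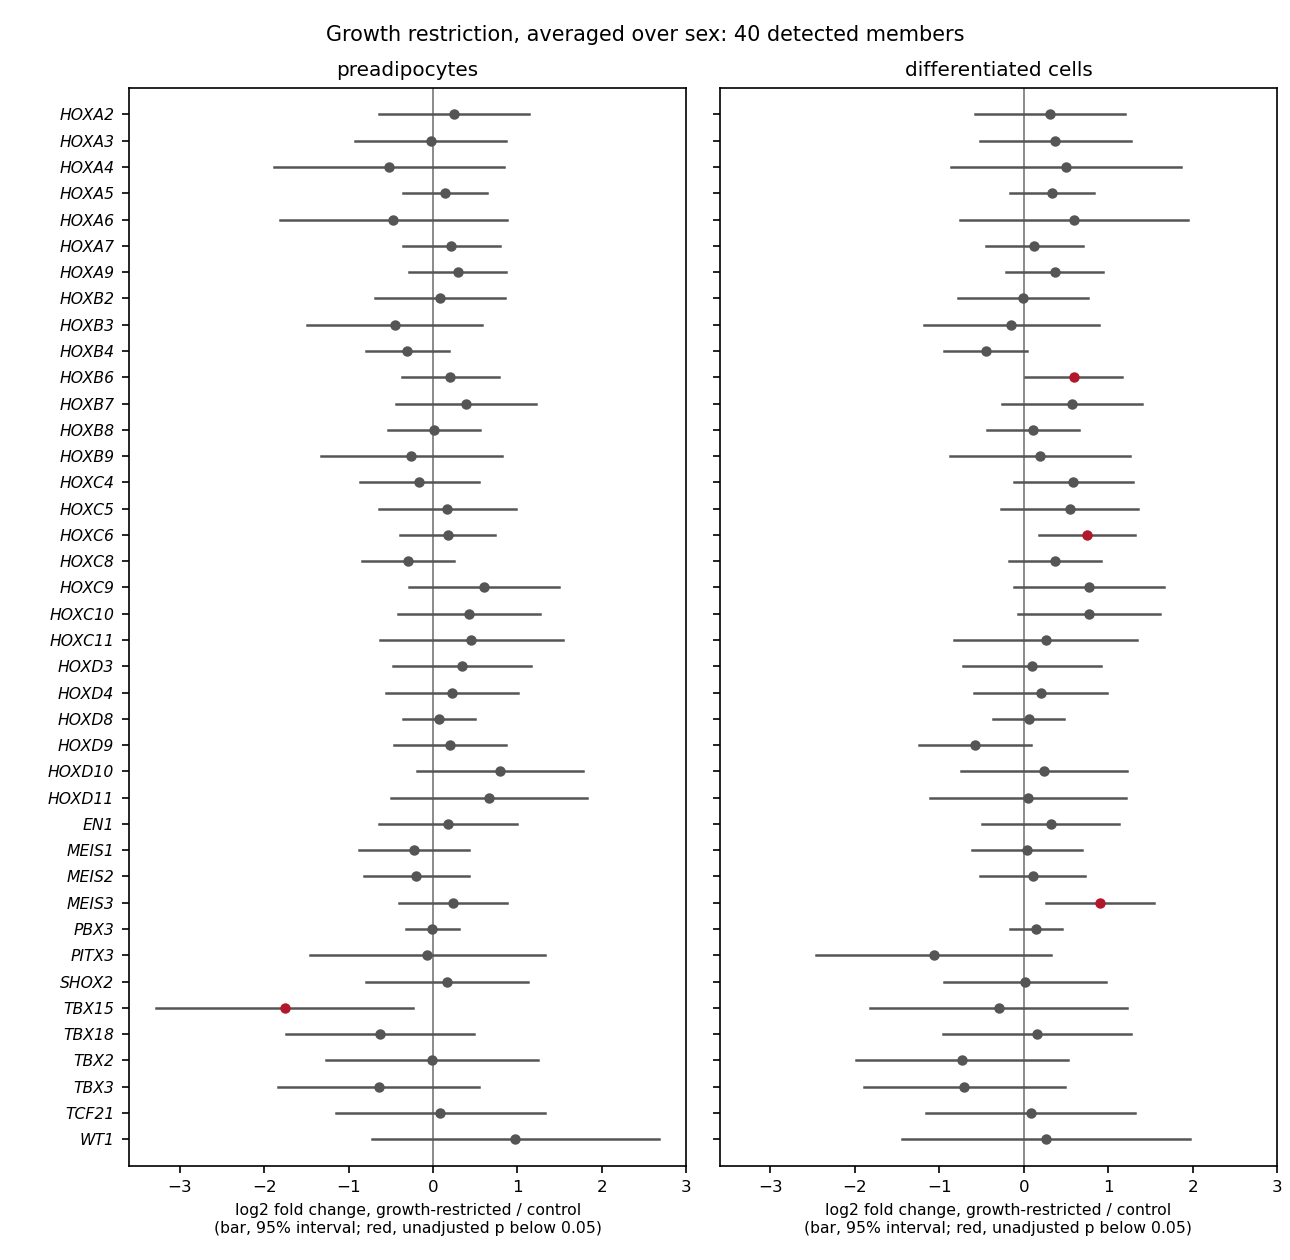
Log2 fold change of growth-restricted against control libraries, averaged over sex, with 95% intervals, for 40 detected members in preadipocytes (left) and differentiated cells (right); red marks an unadjusted limma p below 0.05 (TBX15 on the left; HOXB6, HOXC6 and MEIS3 on the right). None was called after adjustment, and most intervals reach beyond 1.5-fold (0.585 on this axis) on at least 1 side.

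TBX15 had the lowest estimate in preadipocytes, -1.75 ± 0.74 (SE; 95% interval -3.28 to -0.23; limma adjusted p = 0.84). In males the MC libraries, at 16.2 to 51.4, lay above all MFGR libraries, at 0 to 9.49. In females both groups ran from near 0 to a single high library, FC replicate 1 at 64.6 and FFGR replicate 1 at 45.2. The fit of the 8 male preadipocyte libraries gave -2.61 ± 0.79 (SE; limma adjusted p = 0.991). In that fit TBX15 passed the filter only through the MC libraries, so a fall was built into its selection. In the fit of all libraries it passed mainly through control libraries, so both estimates are given as a description.

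MEIS3 had the highest estimate in differentiated cells, 0.90 ± 0.31 (SE; 95% interval 0.26 to 1.55; limma adjusted p = 1). MCD stood at 93.05, 54.0, 27.4 and 44.0 and MFGRD at 159, 111, 113 and 135, which did not overlap. FCD stood at 51.9, 95.6, 142 and 114 and FFGRD at 60.9, 196, 188 and 131, which did. All 42 detected members were compared in this way within each sex and stage. Only MEIS3 in differentiated male cells and TBX15 in male preadipocytes did not overlap. With 42 members compared in each sex and stage, some groups would be apart by chance. The share over all genes was not computed, so both separations are given as a description. HOXC6 was next by moderated statistic, though not by size, with 0.75 ± 0.28 (SE; 95% interval 0.19 to 1.32; limma adjusted p = 1), and without the low MCD replicate 2 its estimate was 0.54. HOXB6 had 0.59 ± 0.28 (SE; 95% interval 0.02 to 1.17; limma adjusted p = 1) and was named after its values were seen.

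The other members with the largest statistics in these contrasts had intervals that included 0. In preadipocytes HOXD10 stood at 0.79 (95% interval -0.19 to 1.77), HOXC9 at 0.60 (-0.28 to 1.49) and HOXB4 at -0.30 (-0.80 to 0.19). The preadipocyte libraries of low span slope were unbalanced here: FC replicate 2, MFGR replicate 1 and FFGR replicates 2 and 3. Over all libraries, the median of HOXC9 was 1020 at low slope and 363 otherwise, and that of TBX15 was 0 and 4.33. The part of span slope in their growth estimates was not tested. In differentiated cells HOXD9 stood at -0.58 (-1.24 to 0.09) and HOXB4 at -0.45 (-0.94 to 0.04). For the difference in stage response HOXC8 stood at 0.67 (-0.10 to 1.44), HOXC4 at 0.75 (-0.24 to 1.74), HOXD9 at -0.78 (-1.72 to 0.16) and PITX3 at -1.001 (-2.97 to 0.97).

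Between the sexes, averaged over growth and stage, no member and no gene was called (0%), and limma gave 4 of 42 members and 469 of all genes at an unadjusted p below 0.05. MEIS3 was lower in males by a log2 fold change of -0.91 ± 0.22 (SE; 95% interval -1.36 to -0.45; limma adjusted p = 0.549), the fifth lowest p-value of the 12737 genes. MC libraries of MEIS3 stood at 64.8 to 99.3 and FC libraries at 101 to 291, and the 2 groups did not overlap. MFGR stood at 38.6 to 181 and FFGR at 155 to 315. HOXD9 had -0.60 (95% interval -1.07 to -0.13), HOXD10 -0.71 (-1.41 to -0.02) and TBX2 -0.93 (-1.82 to -0.04), each with a limma adjusted p = 1. On the other side TBX15 had an estimate of 0.86 (-0.21 to 1.94) and EN1 of 0.42 (-0.16 to 1.00).

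Some members differed more between libraries of 1 group than between stages or growth groups. TCF21, a bHLH factor of visceral mesenchyme, stood at 46.4, 57.7, 139 and 255 in MC and at 79.3, 132, 339 and 674 in MCD, in the same order of replicate numbers. In MFGR it stood at 348 in replicate 1 and between 37.3 and 51.2 in the others, and in MFGRD at 524 in replicate 1 and between 38.9 and 140 in the others. Its log2 fold change with stage was 0.49 ± 0.43 (SE; limma adjusted p = 0.421).

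WT1, the Wilms tumour factor of mesothelium and kidney, ranged from 2.03 to 147 in preadipocytes and from 0.705 to 127 in differentiated cells, and every group other than MCD and FFGRD held values below 10 and above 25. Its log2 fold change with growth restriction in preadipocytes was 0.98 (95% interval -0.73 to 2.68). The summed mesothelial markers KRT8, KRT18, KRT19, LRRN4 and CALB2 stood at 2177 in FC replicate 3, 564 in MFGR replicate 3 and 470 in FFGR replicate 4 and at or below 126.4 elsewhere, and WT1 stood at 45.5, 45.4 and 126 in those libraries. The part of mesothelial cells in the WT1 values was not tested.

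The 9 libraries of low span slope took extreme values for many members. In 11 of 42 members none of the 9 stood above the median of the other 23 libraries, among them HOXA3, HOXA6, HOXA9, HOXB3, HOXC4, HOXC8, HOXD3, MEIS1, MEIS2 and TBX18. TBX18, a T-box gene of stromal and ureteric mesenchyme, had medians of 106 in the 9 and 363 in the 23. TCF21 and PITX3 stood above the median of the 23 in all 9, and TCF21 had medians of 348 and 77.8. HOXC9 had medians of 1020 and 363. Without these libraries 12 of 40 members were called with stage, all of them among the 14, against 27.8% of all genes; EN1 (limma adjusted p = 0.0589) and HOXB9 (limma adjusted p = 0.102) were lost. TBX18, WT1 and TCF21 were chosen for display after their values were seen.

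**Figure D5:**
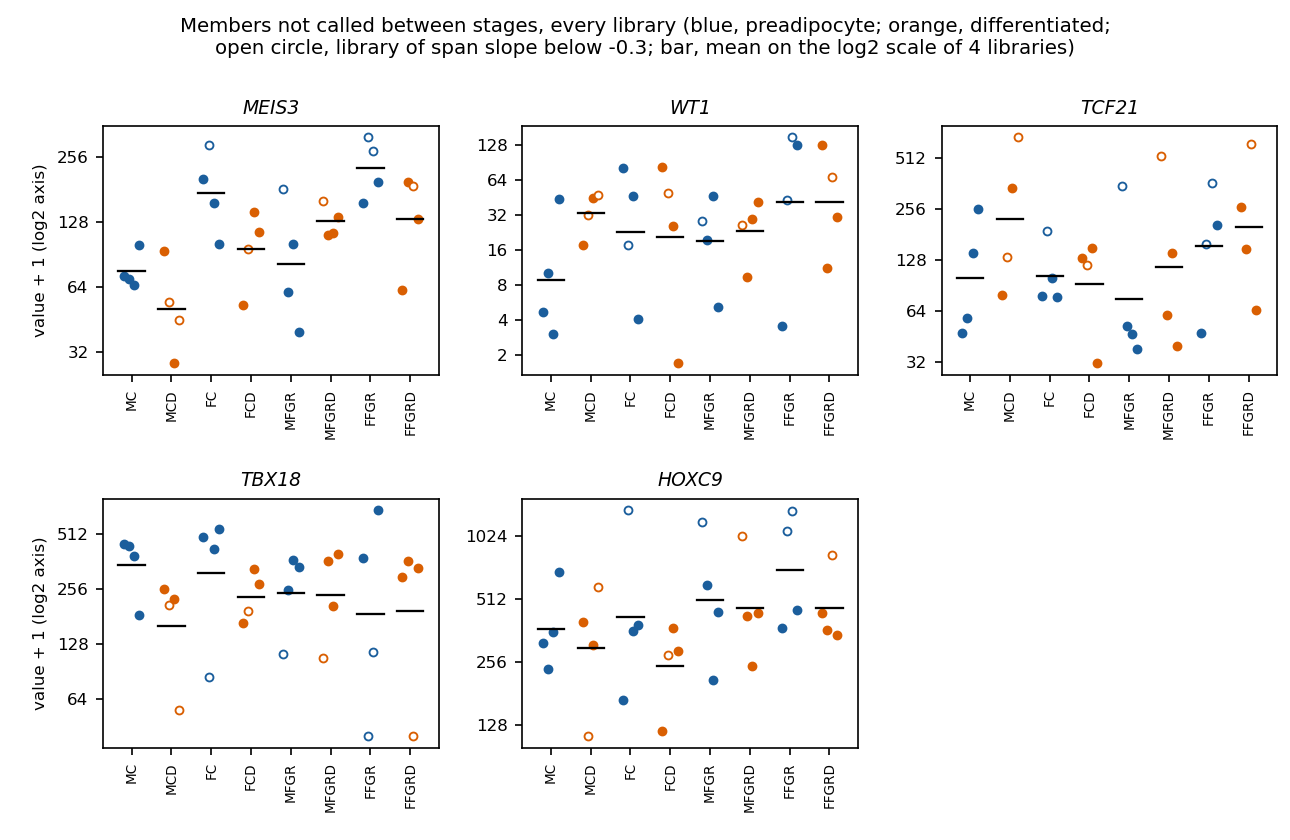
Values + 1 on a log2 axis for 5 members not called between the stages, by group and library (blue, preadipocyte; orange, differentiated; open circles, the 9 libraries of low span slope; bars, mean on the log2 scale of 4 libraries). The open circles lie high for TCF21 and low for TBX18. MEIS3 shows MCD below MFGRD and MC below FC without overlap, given as a description since many members were compared.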

How the data were processed

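The analysis used 32 RNA-seq libraries in 8 groups of 4, assigned from the deposited titles. Per the study's methods and the labels, the authors discarded reads of low average quality after FastQC (version 0.11.9 in the labels), ran Salmon on the Ensembl transcripts of sheep build Oar_rambouillet_v1.0, and scaled the estimates with DESeq2. The deposited signal is the resulting normalized value of each transcript and library. It is not whole reads, so no count model was used. Columns of group means, fold changes and p-values from the authors' own comparisons were not used.

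Values were summed for each gene identifier. Genes with at least 10 in at least 4 libraries were tested with limma (version 3.58.1, R 4.3.3; eBayes with trend) on log2(value + 1), so fold changes of low genes are understated. The contrasts over groups came from 1 fit of 32 libraries, and pairs of groups were fitted on their own 8 libraries. Adjusted p-values are Benjamini-Hochberg over all genes of a fit. On simulated data with changes of 2 on the log2 scale, the averaged stage contrast recovered 90.7% of 194 changed genes among 12484 (3.8% of calls false), growth restriction in preadipocytes 74.5% of 196 among 12467 (6.4% false) and the fit of MC 24% of 179 among 11555 (4.4% false). The simulated noise was independent between genes, without shifts shared within a library such as those with genomic span. Smaller changes were not simulated, so these rates may not carry over to the libraries here.

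The members and gene lists were chosen with earlier results of these data known. Values in every library or range were given for members called in any comparison and for the 2 highest and 2 lowest moderated statistics of each contrast over groups, and by stage medians otherwise. Members called higher and lower were read against the share of all genes called.

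The replicate numbers in the labels were checked as pairs: deviations from group means of same-numbered libraries correlated at 0.162 to 0.615 in MC, 0.303 to 0.508 in FC and 0.393 to 0.671 in MFGR, and at -0.398 to 0.565 in FFGR. The same number gave the highest correlation for 3 of 4 replicates in MC, 4 in FC, 4 in MFGR and 2 in FFGR. Blocked values are therefore given for the first 3, and for FFGR only among the alternative settings. This pairing rests on the data, since the labels do not state it.

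The alternatives tried were a pseudocount of 0.1, quantile normalization, 2 other filters, library weights, transcripts one by one, the slope on genomic span as a covariate, a single fit for the pairs of groups, the replicate block and leaving out each library, and, chosen after seeing the data, leaving out the 9 libraries of low span slope and keeping only genes that passed the filter in each stage. Of the names that match the rule in RefSeq (ARS-UI_Ramb_v3.0, used for names only), HOXA10, PBX2, PBX4 and TBX1 had no row under that name and were not analysed here. Results of some genes are not reported here, and the plots leave them out.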

Additional observations from a re-analysis of the deposited data

Results flagged for a closer look

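For 21 members the 4 libraries of each group were checked for a library far from the others, by the gap to its nearest neighbour over the range on the log2 scale; 8 of 168 groups stood out, and chance gives about 5%. HOXB3 stood out low in FC replicate 2 at 8.95 (others 37.2 to 47.6), in FFGRD replicate 3 at 1.18 (others 21.6 to 28.2) and in MC replicate 4 at 25.6 (others 42.6 to 44.0). HOXC6 was low in MCD replicate 2 at 472 (others 1443 to 1631), and HOXC4 in FFGRD replicate 3 at 58.0 (others 217 to 281). HOXD9 was low in FFGR replicate 1 at 60.5 (others 104 to 108). HOXB4 was high in FFGRD replicate 1 at 23.7 (others 11.9 to 12.9), and HOXC8 in MC replicate 4 at 893 (others 579 to 613). FC replicate 2, FFGRD replicate 3 and MCD replicate 2 are among the 9 libraries of low span slope.

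An unnamed gene of the table, ENSOARG00020000180, lies between HOXA11 and HOXA9 (chromosome 4, 75744901 to 75752739, Oar_rambouillet_v1.0) and was not counted as a member because it carries no name. It stood at 10 or more in all 32 libraries, with a median of 30.8 in preadipocytes (19.0 to 58.6) and 21.3 in differentiated cells (10.8 to 126). Its log2 fold change with stage was -0.62 ± 0.22 (SE; limma adjusted p = 0.0273). The other 2 unnamed genes within the HOX clusters were not detected.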

How the results depend on the processing

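Over the 4 fetal groups, the 14 members called with stage stayed at 11 to 16 under all settings but 1: a stricter filter (20 per M of the library sum, M standing for mega, in 3 libraries) left 17 members to test and called 5. Keeping only genes at 10 or more in 4 libraries of each stage gave 11. Leaving out 1 library gave 11 (without FC replicate 3) to 15 (without FFGRD replicate 1), and the replicate block gave 15. That block also used the replicate numbers of FFGR. Without any filter beyond a value of 1, EN1 (limma adjusted p = 0.0635) and HOXD3 (limma adjusted p = 0.0608) were lost. Counts within 1 fetal group were less steady. In MC the 1 call became 0 with the stricter filter, with a pseudocount of 0.1, with the slope on span as covariate and without the libraries of low slope, 8 with library weights and 10 with the replicate block, and 0 to 4 with 1 library left out, the 4 being without MCD replicate 1. The TBX15 call in MC was also lost in a single fit of all libraries. In MFGR the 1 call became 0 with the stricter filter, with no filter and in a single fit of all libraries, 2 with library weights and with the span slope as a covariate, 5 with the replicate block, and 0 to 1 with 1 library left out. In FFGR 0 became 11 with library weights, 3 in a single fit and 5 with that slope as covariate, and in FC 0 became 1 with library weights. Library weights and the block also raised the share of all genes called in MC and MFGR, and the cause was not tested. The estimation of library weights stopped before its convergence tolerance in some fits, so counts under library weights may depend on this. In FFGR, where only 2 of the 4 numbers correlated best with their own number, the replicate block called 0 members, and it changed no other call in FC. No member was called with growth restriction or sex under any setting, and the sex estimate of EN1 turned from 0.42 to -0.0234 with library weights. Counts of all genes called with stage moved too. The stricter filter lowered 3466 to 1721 over the 4 groups, 874 to 427 in MC, 50 to 11 in FC, 393 to 127 in MFGR and 310 to 31 in FFGR. Library weights gave 2052, 1504, 1344 and 4138 genes in MC, FC, MFGR and FFGR, and the replicate block 1854, 197, 2081 and 182. A single fit gave 321, 654 and 1315 in FC, MFGR and FFGR, and the slope covariate 434, 1653 and 1894. Without the libraries of low slope MC had 195, FC 209 and FFGR 2, and with no filter FC had 29. Library weights called 2 genes with growth restriction in preadipocytes, 2 in differentiated cells and 5 with sex. Depth limits HOXC11, HOXD11, PITX3 and TBX15, whose values rest on a few reads in most libraries.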

Other observations

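Same-numbered libraries before and after differentiation tracked each other for the members about as much as for other genes. Over 16 such pairs, the correlation of deviations from the group means had a median of 0.40 over the 42 detected members, with 39 above 0, and of 0.41 over 12728 detected genes. It is given as a description, with no test, since genes of 1 library share its depth and quality and the labels do not say that a number marks a fetus.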
